A study of Mus musculus with 14 samples.

Results

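The cytosolic ribosomal protein genes encode the proteins of the ribosomes that translate messenger RNA outside mitochondria. They were taken from the deposited table by symbol (names beginning Rpl or Rps with a number, Rpsa, and Rplp0 to Rplp2) and by the table's protein-coding biotype, which gave 73 genes of 12421. Of these, 37 belong to the large subunit, 29 to the small subunit and 3 to the stalk. Another 4 are paralogs of other ribosomal protein genes (Rpl3l, Rpl7l1, Rpl22l1 and Rpl36al). Another 11 rows matched by name and had another biotype in the table, among them Rpl11, Rpl24, Rpl26, Rps16 and Rps18. Of these, 9 are protein coding in GENCODE M21. They are not members and are given beside them where they bear on a result.

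A ribosome is built from a small subunit that reads the messenger RNA and a large subunit that forms peptide bonds, each made of ribosomal RNA and proteins, most of them present as a single copy. Messenger RNAs of these proteins typically begin with a tract of pyrimidines, and their translation is switched together by growth signals through mTORC1. Free Rpl5 and Rpl11, which assemble with the 5S ribosomal RNA, bind Mdm2 and stabilise p53 when ribosome assembly fails. In human T-cell acute lymphoblastic leukaemia, RPL5, RPL10 and RPL22 are recurrently mutated or deleted, and in mice Rpl22 is needed for development of alpha-beta T cells.

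The 14 RNA sequencing libraries came from 8 mouse leukaemias of the T-cell acute lymphoblastic kind, raised in the VTL model with Lmo2 as the starting oncogene. C57BL/6-Ly5.1;FVB F1 mice had received a low dose of irradiation and then thymocytes through a vein. The leukaemias that arose were frozen and later passed to C57BL/6-Rag1-/- recipients, which lack mature T and B cells of their own. Where given, doxycycline (Dox) was in the food at 600 mg/kg. Every library came from spleen cells sorted as positive for both CD45.1 and CD45.2, the mark of the donor leukaemia. By the labels VTL-19 and VTL-24 are dependent on Lmo2 (2 tumours, without Dox only). VTL-153, VTL-25 and VTL-21 are called evolving, and VTL-81, VTL-44 and VTL-33 independent (3 tumours each, without and with Dox). Each tumour and condition had 1 library, so the spread within a class is the spread between leukaemias, and a tumour and its recipient cannot be told apart. Dependent tumours with Dox were not analysed here, and ages and the time on Dox are not given in the sources used here.

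The libraries held 18214415 to 24048281 counts. Lmo2 stood at 9.23 to 737 counts per 1000000 of the library (CPM) without Dox and at 0.196 to 8.40 CPM with it, and it was lower with Dox in all 6 tumours that had both libraries. The 8 T cell markers of a list (Cd3d, Cd3e, Cd3g, Cd247, Thy1, Lck, Cd5 and Cd2) were measured in every library and summed to 3022 to 5121 CPM, with Lck at 894.3 to 1510 CPM, so the labelled cell type had its markers. VTL-25 and VTL-153 without Dox were unusually alike. Counting genes over 20 CPM in a library and under 0.5 CPM in its counterpart, the pair had 4, where any other pair of tumours without Dox had 21 to 131. Libraries of 1 tumour without and with Dox were separated by 0 to 1 such genes in the independent tumours but by 48, 59 and 64 in VTL-21, VTL-25 and VTL-153. VTL-25 with Dox also stood apart by chromosome, as described below. Whether these tumours share an origin or a library carries the label of another was not tested. The 3 evolving tumours may therefore not be 3 separate leukaemias, and the changes with Dox given for them may not all be changes within 1 leukaemia. The members' medians that include these libraries are given with and without VTL-25 and VTL-153.

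The region around the start of transcription is shown for 4 members whose messenger RNAs carry the pyrimidine tract and for the 4 paralogs, because the paralogs were among the 7 members with the largest spread around the median member. Each stretch is from RefSeq on GRCm38.p6, with 40 bases before the annotated start and 25 from the start on, read 5′ to 3′ on the gene's strand. Capitals mark the longest run of C and T within 20 bases of the start.
Rps6: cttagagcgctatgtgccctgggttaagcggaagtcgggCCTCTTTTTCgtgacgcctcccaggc
Rpl15: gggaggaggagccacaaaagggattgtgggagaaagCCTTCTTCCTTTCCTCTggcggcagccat
Rpl35: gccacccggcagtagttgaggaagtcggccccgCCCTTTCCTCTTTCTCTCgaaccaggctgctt
Rps27: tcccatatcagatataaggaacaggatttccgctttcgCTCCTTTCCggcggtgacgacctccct
Rpl22l1: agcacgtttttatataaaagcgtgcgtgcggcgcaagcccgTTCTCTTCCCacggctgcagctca
Rpl7l1: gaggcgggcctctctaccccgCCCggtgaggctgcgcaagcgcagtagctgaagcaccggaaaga
Rpl36al: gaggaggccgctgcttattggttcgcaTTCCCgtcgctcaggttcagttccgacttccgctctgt
Rpl3l: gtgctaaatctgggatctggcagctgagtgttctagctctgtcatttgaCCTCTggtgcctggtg

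The stretches lie at chr4:86857343-86857407 (Rps6, minus strand), chr14:18270962-18271026 (Rpl15, minus), chr2:39005107-39005171 (Rpl35, minus), chr3:90213624-90213688 (Rps27, minus), chr3:28805468-28805532 (Rpl22l1, plus), chr17:46782632-46782696 (Rpl7l1, minus), chr12:69184043-69184107 (Rpl36al, minus) and chr17:24727786-24727850 (Rpl3l, plus). The run was 10 bases in Rps6, 17 in Rpl15, 18 in Rpl35 and 9 in Rps27. In the paralogs it was 10 in Rpl22l1, 5 in Rpl36al and Rpl3l, and 3 in Rpl7l1. Among members not shown, it was 3 in Rpl10 and Rpl23, 4 in Rps4x, 9 in Rpl5 and 10 in Rpl38. The starts of Rpl22 had runs of 4 and 5, so short runs were not particular to the paralogs. Annotated starts can be off by some bases, so the run's exact place is approximate.

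RefSeq windows of 300 bases (250 before the start and 50 after) were found for 53 of the 73 members, with 64 windows in all because some genes have several starts. A pyrimidine run of at least 8 bases within 20 bases of the start was present in 42.2% of the members' windows and in 16% of all 32851 windows. The letters CCGGAAG, the core bound by ETS-family factors, searched on both strands, were in 34.4% of the members' windows and in 8.86% of all. The letters CTTTCC, which can be part of a pyrimidine tract, were in 46.9% against 26.6%, and the E-box CACGTG, which Myc can bind, in 12.5% against 7.15%. All letters counted here were searched on both strands of the whole window. A hit of CTTTCC therefore need not lie in the tract at the start. The TATA box letters TATAAA were in 9.38% of the members' windows and in 13.6% of all. The motifs can overlap each other, and these counts describe letters only.

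Together the 73 genes took up 2.86% to 5.65% of a library's counts, with a wide spread between tumours of the independent class. The dependent tumours VTL-19 and VTL-24 held 3.94% and 4.26% of their counts in these genes. The evolving tumours without Dox were lower than these, at 3.68% in VTL-21, 2.86% in VTL-25 and 3.31% in VTL-153. With Dox, VTL-21 stood at 3.55%, VTL-25 at 3.81% and VTL-153 at 4.28%. The independent tumours without Dox held 4.58% in VTL-33, 3.68% in VTL-44 and 5.65% in VTL-81, and with Dox 4.96%, 3.92% and 4.69%. Without Dox, VTL-25 and VTL-153 lay below every independent library, and VTL-21 and VTL-44 were level at 3.68%, with VTL-21 minimally the higher, so that the evolving and independent groups overlapped. As class means the shares were 4.10% ± 0.23 (SD, n = 2) in dependent tumours, 3.28% ± 0.41 (SD, n = 3) in evolving tumours without Dox and 3.88% ± 0.37 (SD, n = 3) with it. They were 4.64% ± 0.98 (SD, n = 3) in independent tumours without Dox and 4.52% ± 0.54 (SD, n = 3) with it. In bulk RNA a larger share cannot be told apart from less RNA of other genes. No test was made of the sum, because its members were picked with results of these data known.

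**Figure D1:**
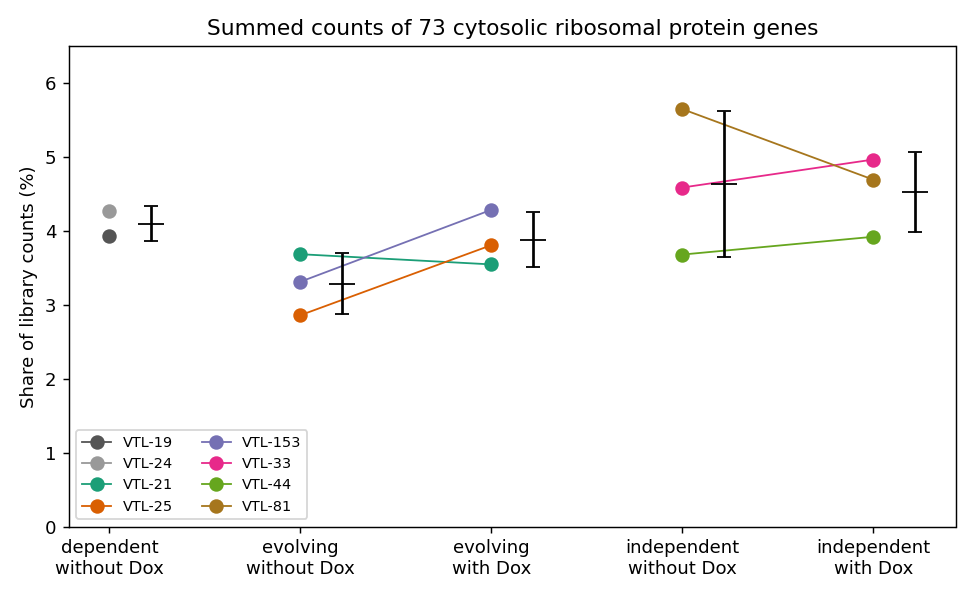
Share of library counts (%) in the 73 cytosolic ribosomal protein genes, 1 point per library, with lines joining the libraries of 1 tumour and black bars giving the mean and SD of a group. VTL-25 without Dox is lowest at 2.86% and VTL-81 without Dox highest at 5.65%, and the evolving and independent groups without Dox overlap at 3.68%.

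Most members were high and low in the same libraries. VTL-81 without Dox had the highest level of all libraries in 65 of the 73 members, and VTL-25 without Dox the lowest in 54. The first axis of a principal component analysis of the members' log2 levels held 74.8% of their variance across the 14 libraries, or 74.2% without Rpl3l. The 2 subunits kept a steady ratio, the summed counts of the 29 small-subunit members being 0.869 to 0.975 of those of the 37 large-subunit members. The library values share depth and composition, so this is a description of these 14 libraries.

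Levels per kilobase, taken over the merged annotated exons of a gene, were highest for Rplp1 (1494 CPM per kb, mean of 14 libraries), a stalk protein that recruits elongation factors, followed by Rpl8 (1353 CPM per kb), Rps15 (1282 CPM per kb) and Rpl4 (1143 CPM per kb). The lowest were the paralogs Rpl3l (9.12 CPM per kb), Rpl7l1 (33 CPM per kb) and Rpl22l1 (45.4 CPM per kb), then Rps28 (50.2 CPM per kb) and Rpl5 (62.0 CPM per kb). Merged exons include rarely used ones, so the length of genes such as Rpl5, here 3920 bases, may be overstated and the level per kb understated. Exons of 14 members overlap another gene of the table, such as Rpl12 with Lrsam1, Rpl15 with Nkiras1, Rpl18 with Sphk2 and Rpl13a with Gm45713. The strand setting of the counting is not given in the sources used here, so reads of such pairs may not have been told apart.

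Members differed in how much they varied. The SD of the log2 level over the 14 libraries was largest for Rpl3l at 2.24, Rpl22l1 at 0.81, Rpl8 at 0.41, and Rpl35 and Rpl23 at 0.37 each. It was smallest for Rps29 at 0.16, Rpl27 at 0.19, Rps24 and Rps28 at 0.21 and Rpl35a at 0.22. For Rps29, a small-subunit protein with a zinc-binding fold, the level was 75.2 to 117 CPM, a 1.56-fold range. The median member spanned a 2.06-fold range from its lowest to its highest library.

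The comparison of independent with evolving tumours without Dox asks how leukaemias that no longer rely on Lmo2 differ from those on the way there. Of the 73 members, 72 had higher fitted levels in the independent tumours (52.8% of all genes did), with a median log2 difference of 0.54 against 0.02 for all 12348 genes tested. None passed an adjusted p of 0.05 in edgeR's quasi-likelihood test, in which 0.259% of all genes passed. At an unadjusted p under 0.05, 44 members were higher and 1 lower, where 8.45% and 7.95% of all genes were. DESeq2 called 23 members higher and none lower (8.73% of all genes in either direction), and limma voom called 0 (0.0567% of all genes). Levels in the groups did not overlap for 32 members that were higher (10.1% of all genes) and 1 that was lower (13.5%). The large-subunit members had a median difference of 0.54, the small-subunit members 0.54 and the stalk 0.38.

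**Figure D2:**
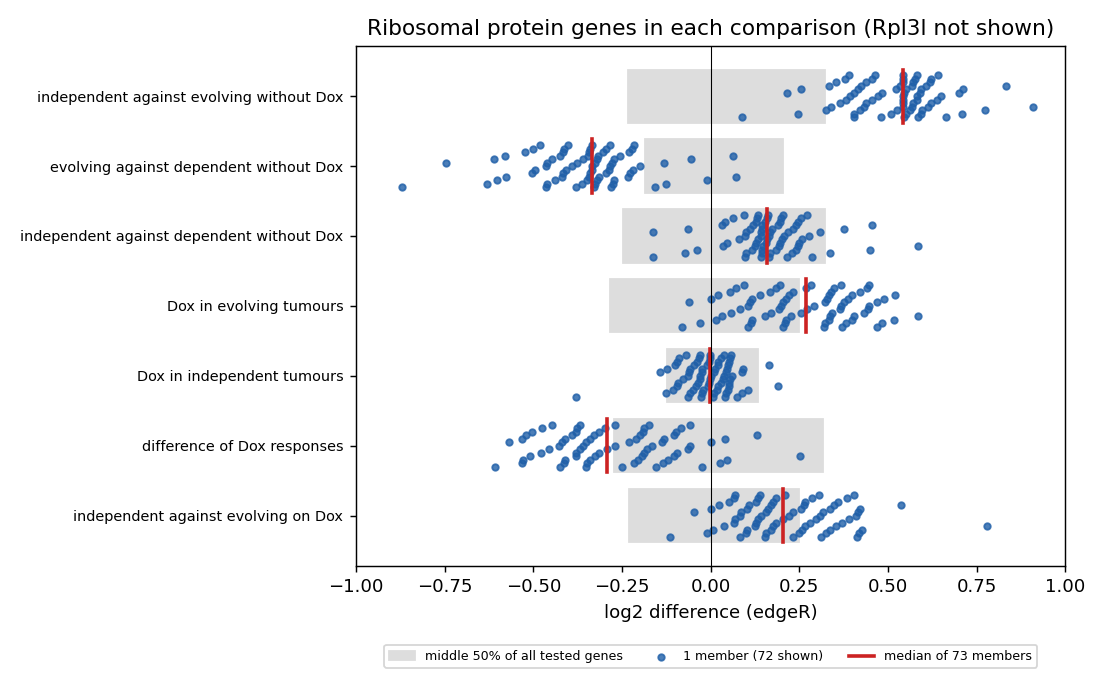
Log2 difference of 72 members in each of the 7 comparisons (points, edgeR), with the median of all 73 members as a red line and the middle 50% of all tested genes as a grey box. Rpl3l is left out of the points. Points sit furthest right of 0 for independent against evolving tumours without Dox, with a median of 0.54, and around 0 for Dox in independent tumours.

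Rps4x (ENSMUSG00000031320, X chromosome, 102184941 to 102189394 on GRCm38), a small-subunit protein, had the smallest p in that comparison. Its level was 734 CPM in VTL-21, 605 CPM in VTL-25 and 662 CPM in VTL-153, against 1103 CPM in VTL-33, 957 CPM in VTL-44 and 1288 CPM in VTL-81. The groups did not overlap, and the log2 difference was 0.77 (SE 0.16, adjusted p = 0.0911, edgeR). Levels of Rps4x in the dependent tumours, at 1009 and 989 CPM, lay within the range of the independent tumours.

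Rpl23 (ENSMUSG00000071415, chromosome 11, 97777527 to 97782437), a large-subunit protein that can also bind Mdm2, had a log2 difference of 0.83 with an SE of 0.21 (adjusted p = 0.135, edgeR). It was at 527, 372 and 441 CPM in the evolving tumours (VTL-21, VTL-25, VTL-153). In the independent tumours (VTL-33, VTL-44, VTL-81) it was at 733, 622 and 985 CPM. Here too every independent library lay above every evolving library. The members with the smallest differences after Rpl3l were Rpl36al at 0.09 and Rps29 at 0.21 (adjusted p = 0.885 and 0.581, edgeR).

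Among the genes mutated in human T-cell leukaemia, Rpl5 (ENSMUSG00000058558) was at 202, 161 and 188 CPM in the evolving and 281, 234 and 332 CPM in the independent tumours, in the same tumour order. Its groups did not overlap, and the log2 difference was 0.65 (SE 0.16, adjusted p = 0.133, edgeR). Rpl10, which completes the peptidyl transferase centre late in assembly, was at 377, 330 and 322 CPM against 475, 329 and 559 CPM. Its groups overlapped through VTL-44, with a log2 difference of 0.44 and an adjusted p of 0.356 (edgeR). Rpl22 (ENSMUSG00000028936) was at 330, 291 and 299 CPM against 439, 364 and 509 CPM, a log2 difference of 0.54 (adjusted p = 0.155, edgeR), and its groups did not overlap. None of these 3 genes passed the test, nor did Rpl11, a row with another biotype that completes the list, and all 4 differences were positive.

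The stalk base Rplp0 (ENSMUSG00000067274) was at 1398, 1184 and 1395 CPM in the evolving and 1895, 1200 and 2507 CPM in the independent tumours, which overlapped, and the log2 difference was 0.53 (adjusted p = 0.380, edgeR). Rpsa, which also serves as a laminin receptor at the cell surface, differed by 0.55, Rps19, the gene most often mutated in Diamond-Blackfan anaemia, by 0.40, and Rps6, the substrate of S6 kinase, by 0.54. Of the 19 genes of a Diamond-Blackfan anaemia list, all 19 were positive, where 72 of the 73 members and 52.8% of all genes were. At an unadjusted p under 0.05, 12 of the 19 were higher, where 44 of the 73 members and 8.45% of all genes were, and none passed the adjusted test.

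The size of this difference depended on single tumours. Without VTL-81 the members' median was 0.35, without VTL-25 0.43, without VTL-153 0.53, and without VTL-44 0.66. Without VTL-44, 2 members passed the adjusted test in edgeR, Rpl22l1 and Rpl3l. The share of all genes passing in that fit is not reported here, so the 2 cannot be set against it. Summed myeloid markers, 10 of 10 in the table, were 16.8 to 226 CPM in the evolving libraries without Dox and 69.2, 1449 and 185 CPM in VTL-33, VTL-44 and VTL-81, and mitochondrial genes held 1.90% to 2.11% and 1.62% to 4.92% of the counts. Summed stromal and endothelial markers, 4 of 9 in the table, were 161 to 185 CPM in the evolving and 255 to 636 CPM in the independent tumours, without overlap, and all 4 were positive (median 2.56). Summed erythroid markers, 8 of 11 in the table, were 173 to 287 CPM and 276 to 360 CPM, with all 8 positive (median 0.96). With the mitochondrial genes taken out of the total, the members' share was 2.91% to 3.76% in the evolving and 3.87% to 5.74% in the independent tumours. What part these cells had in the result was not tested.

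Against the dependent tumours, the evolving tumours without Dox were lower in 70 of the 73 members and higher in 3 (52.0% of all genes were higher), with a median log2 difference of -0.33 against 0.01 for all genes. None passed the edgeR test, and neither did any other gene (0.00% of all). At an unadjusted p under 0.05, 13 members were lower and 0 higher (2.10% and 1.30% of all genes), DESeq2 called 1 member, Rps24, lower (0.523% of all genes in either direction), and limma voom called 0 (0.00%). For 51 members every evolving library lay below both dependent libraries, where 7.80% of all genes did so, and for 0 members above both (12.6% of all genes). The 3 evolving libraries include the close pair VTL-25 and VTL-153. Without VTL-25 the median was -0.26, and without VTL-153 -0.35. Mitochondrial genes held 4.73% and 2.63% of the counts in the dependent tumours, above the 1.90% to 2.11% of the evolving ones, and with them taken out of the total the members' shares were 4.13% and 4.38% against 2.91% to 3.76%.

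Rps24, a small-subunit protein needed for processing of the 18S ribosomal RNA, was at 550 CPM in VTL-19 and 508 CPM in VTL-24, against 388, 364 and 392 CPM in VTL-21, VTL-25 and VTL-153. The groups did not overlap, with a log2 difference of -0.50 (SE 0.13, adjusted p = 1.00, edgeR, and 0.0114, DESeq2). Rpl22l1 had the largest difference, -0.87 (adjusted p = 1.00, edgeR), followed by Rpl35 at -0.75 and Rpl12 at -0.63. Rpl35 was at 264 CPM in VTL-19 and 189 CPM in VTL-24, so its difference leaned on VTL-19. The members highest in the evolving tumours were all paralogs: Rpl3l at 0.56, Rpl36al at 0.07 and Rpl7l1 at 0.06.

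Independent and dependent tumours without Dox were compared last, and the 3 class comparisons without Dox share their libraries. The members' median log2 difference was 0.16 against 0.03 for all genes, with 67 of 73 positive (53.1% of all genes). None passed the edgeR test (0.0972% of all genes passed), 1 (Rpl30) was higher and 0 lower at an unadjusted p under 0.05 (6.41% and 6.79% of all genes), and DESeq2 and limma voom called 0 members (6.47% and 0.00% of all genes). Levels did not overlap for 6 members that were higher (14.2% of all genes) and 1, Rps24, that was lower (13.5%). The 6 were Rpl8, Rpl37, Rpl30, Rpl7l1, Rpl35a and Rps28. The 3 largest differences were Rpl8 at 0.58, Rpl37 at 0.45 and Rpl30 at 0.45, with adjusted p of 0.472, 0.579 and 0.374 (edgeR). All of these lie on chromosome 15, which is described below. Without VTL-81 the median was 0.0051, and without VTL-44 it was 0.31, with 1 member, Rpl3l, then passing the test. The share of all genes passing without VTL-44 is not reported here. All 10 myeloid and all 8 erythroid markers were positive here (medians 2.47 and 1.45), and summed stromal and endothelial markers were 141 to 167 CPM in the dependent and 255 to 636 CPM in the independent tumours. Their part in the values was not tested.

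Lmo2 was lower with Dox in both classes, and the change of the ribosomal protein genes was followed between the paired libraries of each tumour number. In the evolving tumours these pairs may not all be of the same leukaemia, as said above. In the evolving tumours 68 of 73 members had a positive Dox term (49.7% of all genes), with a median log2 change of 0.27 against -0.0022 for all 12360 genes tested. None passed the edgeR test, in which 2.13% of all genes passed. At an unadjusted p under 0.05, 8 members were higher and 1 lower (8.57% and 8.15% of all genes). DESeq2 called Rps4x higher and Rpl3l lower (10.6% of all genes in either direction), and limma voom called 0 members (3.45% of all genes). In CPM, without TMM scaling, a change in the same direction in all 3 tumours was seen upward in 15 members and downward in 1. Of all genes, 15% and 20% did so. That count of 15 in 73 is close to the share of all genes.

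The 3 evolving tumours did not move alike. On TMM-scaled log2 values, which differ from the CPM used for the count over all 3 tumours, the median member of VTL-21 changed by -0.10. There 60 of 73 members were lower with Dox. In VTL-25 the median change was 0.46 with 63 members higher, and in VTL-153 it was 0.44 with 71 members higher. The higher values with Dox thus came from the 2 tumours that were alike without Dox. Leaving out VTL-25 gave a median of 0.18 across the class, leaving out VTL-153 0.17, and leaving out VTL-21 0.41. Summed erythroid markers were higher with Dox in all 3 tumours, at 287 and 472 CPM in VTL-21, 197 and 469 CPM in VTL-25 and 173 and 351 CPM in VTL-153. All 8 markers had a positive fitted change (median 0.73). Hba-a1 of this list went from 0.669 to 18.5 CPM in VTL-21, but from 1.25 to 1.03 CPM in VTL-25. In VTL-153 it went from 0.468 to 0.0981 CPM, so other genes made up most of these sums. The myeloid sum moved the other way from the members, with VTL-21 at 16.8 CPM before and 186 CPM on Dox, VTL-25 at 226 and 24.4 CPM, and VTL-153 at 168 and 19.2 CPM. The part of either in the members' values was not tested.

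**Figure D3:**
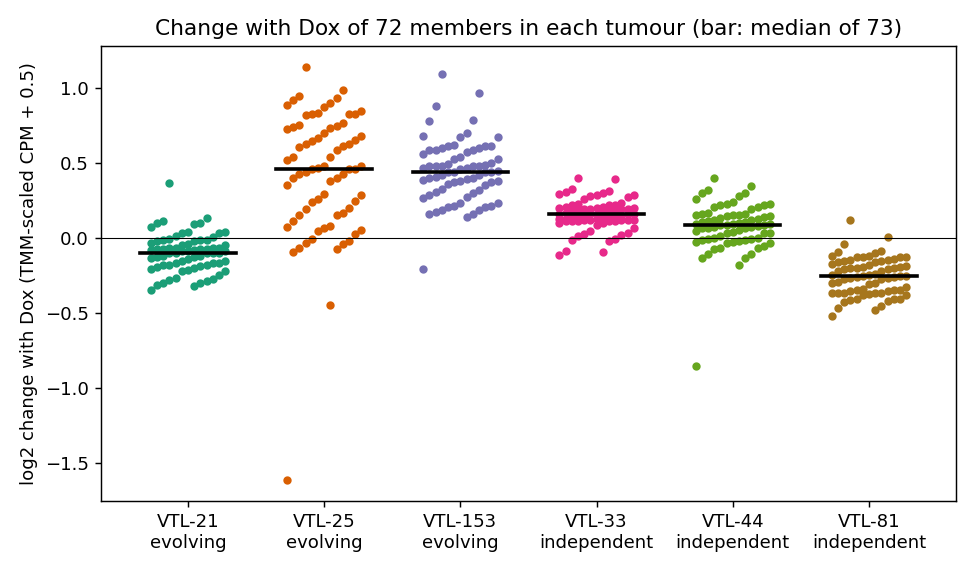
Log2 change with Dox (TMM-scaled CPM plus a pseudocount of 0.5) of 72 members (points, Rpl3l left out) in the 6 tumours that had both libraries, with the median of 73 members as a black bar. Medians are 0.46 and 0.44 in VTL-25 and VTL-153, -0.10 in VTL-21, 0.16 and 0.09 in VTL-33 and VTL-44, and -0.26 in VTL-81, and the points of VTL-25 are the most spread.

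Rps4x had the largest Dox term of the members in the evolving tumours. In VTL-21 it was at 734 CPM before and 763 CPM with Dox, in VTL-25 at 605 and 1113 CPM, and in VTL-153 at 662 and 1065 CPM. All 3 were higher with Dox, VTL-21 by little, and the log2 change was 0.58 (SE 0.20, adjusted p = 0.205, edgeR, and 0.0396, DESeq2). Without VTL-25 it was 0.41 and without VTL-153 0.47. Rps4x lies on the X chromosome, whose other genes had a median deviation (log2, defined below) of 0.08 without and 0.46 with Dox in VTL-25. That median was -0.02 and -0.09 in VTL-21, and -0.04 and -0.06 in VTL-153. What part the chromosome had in the change of Rps4x was not tested. Rpl23 went from 527 to 557 CPM, from 372 to 632 CPM and from 441 to 661 CPM, a change of 0.52 (adjusted p = 0.228, edgeR). Rplp0 went from 1398 to 1476 CPM, from 1184 to 2494 CPM and from 1395 to 1688 CPM, a change of 0.52 (adjusted p = 0.356, edgeR) that was largest in VTL-25 and was 0.21 without that tumour. Rpl5, Rpl10 and Rpl22 changed by 0.44, 0.37 and 0.47 with adjusted p of 0.254, 0.338 and 0.224 (edgeR), and by 0.25, 0.22 and 0.27 without VTL-25. The smallest values were those of Rpl3l at -2.91, Rpl13a at -0.08 and Rpl22l1 at -0.06, each treated below.

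In the independent tumours Dox left the class median at -0.0031, with 34 members positive (51.6% of all genes) and 39 negative. None of the 73 passed in edgeR, where no gene of 12360 passed (0.00%). At an unadjusted p under 0.05 there were 0 members (0.332% of all genes were higher and 0.372% lower), and DESeq2 and limma voom called 0 members and 0 genes in all. In CPM, without TMM scaling, all 3 tumours moved up in 1 member and down in 6, against 7.08% and 10.4% of all genes. Behind the flat median, the tumours differed on TMM-scaled log2 values. VTL-33 had 66 members higher with a median of 0.16, VTL-44 had 53 higher with 0.09, and VTL-81 had 71 lower with -0.26. VTL-81 went from the highest members' share of all libraries, 5.65%, to 4.69%, while mitochondrial genes went from 1.62% to 5.73% of its counts. With the mitochondrial genes taken out of the total, its members' share went from 5.74% to 4.98%. Without VTL-81 the class median was 0.13.

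The members furthest from 0 in the independent tumours were Rpl7l1 at -0.38, Rpl15 at -0.14 and Rps15 at -0.13 on the low side. On the high side they were Rpl22l1 at 0.19, Rplp0 at 0.16 and Rps19 at 0.11, all with an adjusted p of 1.00 (edgeR). The value of Rpl7l1, a paralog of Rpl7 with a role in making ribosomes, leaned on VTL-44, where it went from 118 to 65.4 CPM. In VTL-33 it went from 137 to 124 CPM and in VTL-81 from 145 to 123 CPM. With Dox, summed myeloid markers changed from 1449 to 789 CPM in VTL-44 and from 185 to 2015 CPM in VTL-81. All 8 erythroid markers were positive (median 1.95). Their sum went from 360 to 331 CPM in VTL-33, from 317 to 417 CPM in VTL-44 and from 276 to 354 CPM in VTL-81. Hba-a1 of this list was at 0 to 18.5 CPM in the 14 libraries, so other genes made up most of the erythroid sums. The part of these markers in the members' values was not tested.

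The difference between the 2 responses, independent minus evolving, had a median of -0.29 over the members, and 66 of 73 were negative and 7 positive (50.4% of all genes were positive). None passed the edgeR test (0.121% of all genes passed), 2 were lower and 0 higher at an unadjusted p under 0.05 (4.79% and 4.74% of all genes), and DESeq2 and limma voom called 0 members (4.44% and 0.558% of all genes). The lowest were Rps4x at -0.61, Rpl5 at -0.57 and Rpl7 at -0.53, with adjusted p of 0.577, 0.523 and 0.520 (edgeR). Rpl5 went from 202 to 228 CPM, 161 to 276 CPM and 188 to 224 CPM in VTL-21, VTL-25 and VTL-153. It went from 281 to 274 CPM, 234 to 229 CPM and 332 to 256 CPM in VTL-33, VTL-44 and VTL-81. The change of Rpl5 was thus lower in every independent tumour than in any evolving one. On the TMM-scaled log2 values, changes were separated in this way for 5 members (Rpl4, Rpl5, Rpl7, Rpl22 and Rpl7l1; 7.21% of all genes), without each class having to move in 1 direction, and in the opposite way for 0 members (7.85% of all genes). Without VTL-25 the median difference was -0.21, without VTL-153 -0.21, without VTL-81 -0.16 and without VTL-21 -0.47.

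With Dox in both, independent tumours had higher fitted levels than evolving ones in 70 of 73 members (49.0% of all genes), with a median of 0.20. Leaving out VTL-25 gave a median of 0.21 and leaving out VTL-153 0.32. It was 0.31 when VTL-44 was dropped, and 0.11 and 0.12 when VTL-21 and VTL-33 were. None passed in edgeR, where no gene of 12093 passed (0.00%), 1 was higher and 0 lower at an unadjusted p under 0.05 (2.35% and 2.39% of all genes), and DESeq2 and limma voom called 0 members (0.784% and 0.00827% of all genes). Levels did not overlap for 4 members that were higher and 0 that were lower (4.31% and 5.24% of all genes). The member with p under 0.05 was Rps14, a small-subunit protein of the platform, at 0.54 (SE 0.20, adjusted p = 0.974, edgeR). The largest values were Rpl3l at 1.09, treated below, and Rpl22l1 at 0.78 (0.31 without VTL-25 and 1.24 without VTL-153), and the smallest Rpl7l1 at -0.11, Rpl36al at -0.05 and Rpl22 at -0.0094. This comparison shares its libraries with the Dox comparisons, so the values are side by side and not separate evidence. Summed stromal and endothelial markers were 174 to 268 CPM in the evolving and 362 to 896 CPM in the independent tumours on Dox, and all 10 myeloid markers were positive (median 2.72). Their part in the result was not tested.

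VTL-25 with Dox differed from the other libraries by which members were high. In it, 20 members lay more than 0.4 log2 from the median member, against 1 to 4 in each other library. A member's deviation is its log2 level less its median over the 14 libraries, set against the median deviation of the 73 members in the same library. The same was true of genes in general: the median gene of 19 of 20 chromosomes lay more than 0.1 log2 from 0 in that library, against 1 or 2 chromosomes in every other one. On its 8 low chromosomes (2, 3, 6, 7, 8, 13, 18 and 19) the chromosome medians were -0.33 to -0.12, and all 25 members there were below the median member (median -0.38). On its 11 high chromosomes the chromosome medians were 0.16 to 0.46, and 35 of 44 members were above, with a median of 0.12. In the other 13 libraries the medians of these same members were between 0.00 and 0.10 and between -0.04 and 0.0086.

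Rpl13a (ENSMUSG00000074129, chromosome 7, 45125558 to 45128761), a large-subunit protein that can leave the ribosome to silence inflammatory messages, shows this. It was at 862 CPM in VTL-25 with Dox and at 1229 to 2178 CPM in the other 13 libraries, a deviation of -0.85. Rplp0, on chromosome 5, went the other way, with 2494 CPM and a deviation of 0.64. Copy number of DNA was not measured here, and the cause of the chromosome pattern was not tested.

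Chromosome 15 split the libraries into 2 sets. In VTL-21, VTL-33 and VTL-44, without and with Dox, and in VTL-153 with Dox, the median gene of chromosome 15 was 0.17 to 0.29 log2 above its overall level. In 6 libraries (VTL-19, VTL-24, VTL-25 without Dox, VTL-153 without Dox, and VTL-81 without and with Dox) it was at -0.38 to -0.23, and VTL-25 with Dox was at -0.03. The 4 members on this chromosome followed: the median of Rpl3, Rpl8, Rpl30 and Rpl37 was 0.15 to 0.26 above the median member in the 7 high libraries and between -0.25 and -0.16 in the 6 low ones. In VTL-25 with Dox it was -0.20, within the range of the low libraries. Rpl8 and Rpl37 did not overlap between the high and low libraries, while Rpl3 (0.01 at the lowest of the high and 0.16 at the highest of the low) and Rpl30 (-0.10 and -0.05) did. The 7 and 6 libraries were picked by the genes of the chromosome, members excepted, and the split is given as a description.

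Rpl8 (ENSMUSG00000003970, chromosome 15, 76904078 to 76906314), a large-subunit protein near the peptidyl transferase centre, showed it best. It was at 1405 and 1463 CPM in the dependent tumours VTL-19 and VTL-24, at 2071, 1022 and 1243 CPM in VTL-21, VTL-25 and VTL-153 without Dox, and at 1714, 1362 and 2472 CPM with it. In VTL-33, VTL-44 and VTL-81 it was at 2315, 2012 and 2097 CPM without Dox and at 2560, 2383 and 1622 CPM with it. In VTL-153 Rpl8 was thus at 1243 CPM without Dox, where its chromosome was in the low set. It was at 2472 CPM with Dox, where its chromosome was in the high set. As said above, these libraries may not be of the same leukaemia. Leaving out the 4 members of chromosome 15, a choice made after seeing the data, must lower every share. The mean shares were then 3.83% in dependent tumours and 3.03% and 3.56% in evolving tumours without and with Dox. In independent tumours they were 4.26% and 4.145%, and the order of the groups did not change.

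**Figure D4:**
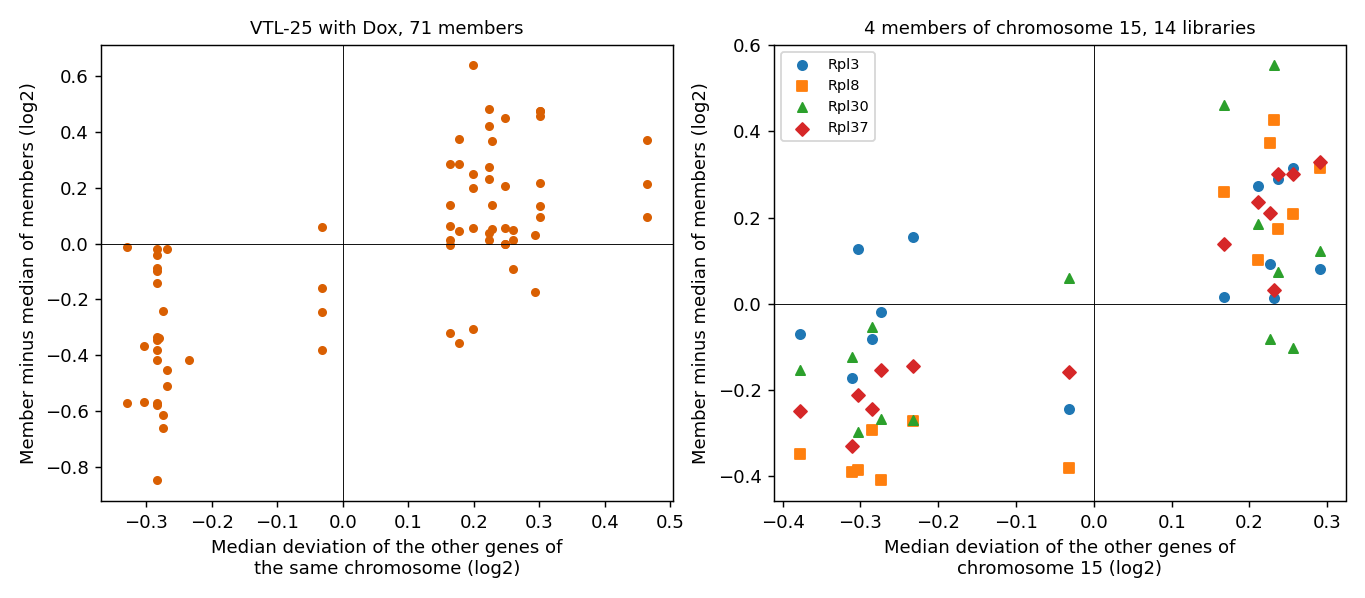
Left, deviation of 71 members from the median member in VTL-25 with Dox (log2, y axis; Rpl3l and Rpl22l1 left out) against the median deviation of the other genes of their chromosome (x axis): members of low chromosomes are all below 0. Right, the same for the 4 members of chromosome 15 over 14 libraries, where the other genes of the chromosome (x axis) are low in 6 libraries, high in 7 and at -0.03 in VTL-25 with Dox, in which the 4 members' median is -0.20.

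The paralogs are related copies of ribosomal protein genes, and some of them can take the place of the usual protein in the ribosome. Rpl3l (ENSMUSG00000002500, chromosome 17, 24727820 to 24736143) is the form of Rpl3 found mainly in heart and skeletal muscle. Its level was 28 and 11.7 CPM in VTL-19 and VTL-24, and 24.8, 27.1 and 37.8 CPM in VTL-21, VTL-25 and VTL-153 without Dox. With Dox it was at 18 CPM in VTL-21, 2.11 CPM in VTL-25 and 1.62 CPM in VTL-153. In the independent tumours VTL-33, VTL-44 and VTL-81 it was at 0.862, 12.1 and 0.741 CPM without Dox and at 0.338, 44.3 and 0.220 CPM with it. All 8 libraries of dependent tumours, of evolving tumours without Dox, of VTL-21 with Dox and of VTL-44 were at 11.7 CPM or more, and the 6 others at 2.11 CPM or less, the lowest being 4 counts.

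Rpl3l was the 1 member of 73 with a negative difference between independent and evolving tumours without Dox. That log2 difference was -2.66 (SE 1.08, adjusted p = 0.283, edgeR), with groups that did not overlap. Without VTL-44 it was -5.18 (adjusted p = 0.0198, edgeR), and against the dependent tumours it was -2.10 with VTL-44 and -4.61 without it (adjusted p = 0.475 and 0.0330, edgeR). With Dox in the evolving tumours it changed by -2.91 (SE 1.04, adjusted p = 0.228, edgeR, and 0.00312, DESeq2). Between the classes on Dox the value was 1.09 with all tumours, turned to -4.59 without VTL-44, and passed no test. Rpl3, its partner, was at 422 to 1003 CPM, so that Rpl3l made up 0.0267% to 7.39% of the level of Rpl3.

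Rpl22l1 (ENSMUSG00000039221, chromosome 3, 28805436 to 28807424) is the close relative of Rpl22, and Rpl22 is known to hold it down. It was at 114 and 95.4 CPM in the dependent tumours, at 66 CPM, 52.8 CPM and 56 CPM in VTL-21, VTL-25 and VTL-153 without Dox, and at 87.6, 16.1 and 102 CPM with it. In VTL-33, VTL-44 and VTL-81 it was at 137, 64.7 and 120 CPM without Dox and at 142, 82.7 and 128 CPM with it. The log2 difference between independent and evolving tumours without Dox was 0.91 (SE 0.27, adjusted p = 0.179, edgeR, and 0.0327, DESeq2), the largest of the members, and VTL-44 lay within the evolving range. Without VTL-44 it was 1.17 (adjusted p = 0.0402, edgeR).

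As a share of the level of Rpl22 it was 17.8% to 31.9% in 13 libraries, and 3.17% in VTL-25 with Dox, where Rpl22 was at 509 CPM. This library held 329 counts of Rpl22l1, and the deviation of -2.40 was larger than the -0.33 to -0.12 of its low chromosomes, chromosome 3 among them. Because of it, the Dox change of Rpl22l1 in the evolving tumours was -0.06, and 0.67 without VTL-25.

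Rpl36al ranged from 80 to 137 CPM and Rpl7l1 from 65.4 to 145 CPM, with medians of 52.8% of Rpl36a and 11.3% of Rpl7. Rpl36al and Rpl36a encode nearly identical proteins, so reads may have been split between them in the authors' counting.

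**Figure D5:**
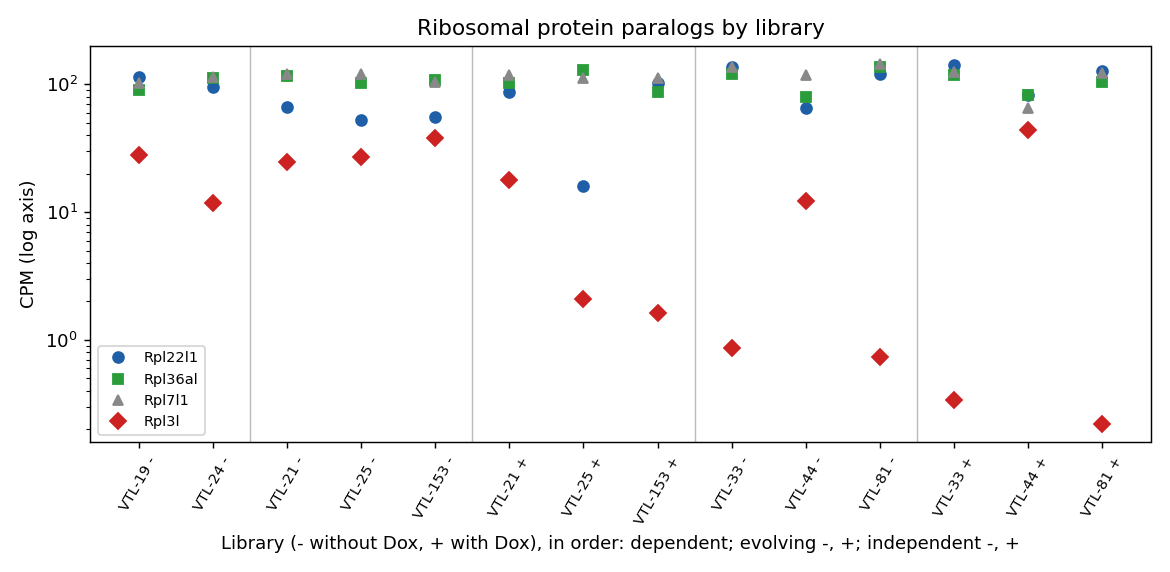
CPM (log axis) of the 4 paralogs in the 14 libraries, with grey lines between the groups. Rpl3l spans 0.220 to 44.3 CPM and is at 2.11 CPM or less in 6 libraries, Rpl22l1 is at 16.1 CPM in VTL-25 with Dox, and Rpl36al and Rpl7l1 stay between 65.4 and 145 CPM.

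Genes near the ribosome were described by lists. The 16 genes of translation elongation and related factors, such as Eef1a1, Eef2 and Tpt1, include many that share the pyrimidine tract. All 16 were positive in independent against evolving tumours without Dox (52.8% of all genes), with a median of 0.49 and 6 higher at an unadjusted p under 0.05 (8.45% of all genes). All 16 were also positive with Dox in evolving tumours (49.7% of all genes), with a median of 0.40 and 7 higher at an unadjusted p under 0.05 (8.57% of all genes). None passed the adjusted test in either. In evolving against dependent tumours 13 of the 16 were negative, with a median of -0.21, and with Dox in independent tumours 10 were negative, with a median of -0.05. The difference between the Dox responses was negative in 15 (median -0.46), and 10 were positive between the classes on Dox (median 0.09). The 11 rows with ribosomal protein names and another biotype had medians of 0.50 and 0.23, and 28 named ribosomal protein pseudogenes, which hold 0.0142% to 0.0263% of the counts, had 0.49 and 0.31. Pseudogene reads may come from the parent genes, so these are not a separate measurement.

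Lists for making and controlling ribosomes had smaller medians than the members in some comparisons, which are given first. The 30 ribosome assembly genes had a median of 0.11 in independent against evolving tumours without Dox and 0.06 with Dox in evolving tumours. The 66 genes of the mitochondrial ribosome had medians of 0.06 and -0.03, and the 17 genes of mTORC1 and pyrimidine tract control -0.23 and, with 16 tested, -0.04. None of these genes passed the adjusted test in these comparisons. With Dox in independent tumours 3 of the 30 assembly genes were positive (51.6% of all genes). Their median was -0.22 against -0.0031 for the members. Between the classes on Dox 7 were positive (49.0% of all genes), with a median of -0.20 against 0.20. For the difference between the Dox responses 7 were positive (50.4% of all genes), with a median of -0.34 against -0.29. Against dependent tumours the medians were -0.01 (evolving) and 0.08 (independent). Of 8 genes of the p53 response to ribosomal proteins, 1 passed, Phlda3, which was lower with Dox in evolving tumours (log2 change -2.57, adjusted p = 0.0466, edgeR). In that comparison 2.13% of all genes passed, and 4 of the 8 were positive and 4 negative (median -0.04). The mTORC1 route acts on translation of these messenger RNAs, which RNA counts do not measure.

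Markers of other cells were read beside these results. In the B cell list 3 of 8 genes were measured (Ighm, Blk and Cd79b), and their sum of 6416 CPM in VTL-21 with Dox was highest, with Cd79b at 4.57 CPM there. The erythroid, myeloid and stromal sums are given beside the comparisons above. Col1a2 of the stromal and endothelial list passed the test with Dox in evolving tumours, upward by 5.75 on the log2 scale (adjusted p = 0.0247, edgeR). In that comparison 2.13% of all genes passed, and of the 4 measured genes of the list 2 were positive and 2 negative. The part of these cells in the members' values was not tested.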

How the data were processed

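The submitters' processing notes name STAR 2.5.2b, featureCounts and the build mm10. The annotation and strand setting are not given in the sources used here. The deposited values were raw counts per gene that the authors had not normalised. The table also held 42 other columns of per-sample values, which were not used. All 73 identifiers matched GENCODE M21 (GRCm38) by identifier and symbol. CPM are counts per 1000000 of a library's total over the 12421 rows; log2 levels used 0.5 CPM as a pseudocount.

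Counts were tested over all genes with edgeR 4.0.16 in R 4.3.3 (TMM factors, default filter with a minimum count of 10, robust quasi-likelihood fits, Benjamini-Hochberg adjustment, threshold 0.05); all 73 members passed the filter in every comparison. Dox comparisons fitted 12 libraries with a block for each tumour and 1 Dox term per class; class comparisons used the 8 libraries without or the 6 with Dox. The SE, derived from the change and its F statistic, is approximate where counts are few. The numbers in the titles were taken to pair libraries of 1 leukaemia. Deviations of partners from their group means correlated at 0.192 (VTL-21), 0.0268 (VTL-25), 0.170 (VTL-153), 0.702 (VTL-33), 0.636 (VTL-44) and 0.517 (VTL-81). Where 1 dependent tumour remains it is assumed to vary like the others.

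Alternatives were RLE factors, TMM factors without ribosomal protein genes, DESeq2 1.42.0, limma 3.58.1 voom, no filter, a minimum count of 50, pseudogene reads added, no tumour block, and each tumour left out. The scripts were tested on simulated data. Members named were the stalk, paralogs, Rpl5, Rpl10, Rpl22, Rpsa, Rps19 and Rps6, the 3 largest and 3 smallest changes of a comparison, the 5 highest and lowest levels per kb, and the 5 largest and smallest SDs. A few items that these rules name are not reported here. The members and lists were chosen with earlier results of these data known, and members that illustrate a chromosome, and those that DESeq2 called, were named after their values were seen. Replicates are separate leukaemias by number, and p-values measure only the spread between these samples.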

Additional observations from a re-analysis of the deposited data

How the results depend on the processing

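Results on the members kept an edgeR count of 0 calls under RLE factors, TMM factors without ribosomal protein genes, no filter, a minimum count of 50, added pseudogene reads and limma voom. DESeq2 called 23 members for independent against evolving tumours without Dox, 2 for Dox in evolving tumours and 1 for evolving against dependent tumours. With each tumour left out in turn, the count ranged from 0 to 2 in independent against evolving tumours without Dox and from 0 to 1 in independent against dependent tumours. For the fits with a tumour left out, the share of all genes passing is not reported here. Without the tumour block the Dox comparisons also gave 0 members, and the median change in evolving tumours was 0.27, so the block changed no call. Leaving the members of chromosome 15 out lowered the share in dependent tumours to 3.83%.

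Signs turned in a few values near 0, or with few counts. Dox in evolving tumours gave Rpl22l1 a change of 0.058 with limma voom and 0.28 without the replicate block, and -0.64 to 0.67 with 1 tumour left out (0.67 without VTL-25). With 1 tumour left out, Rpl13a ranged from -0.27 to 0.11 there (0.11 without VTL-25). Dox in independent tumours gave Rps15 -0.28 to 0.014 (0.014 without VTL-81) and Rps19 -0.0049 to 0.26 (-0.0049 without VTL-33). Rpl36al ranged from -0.067 to 0.28 in independent against evolving tumours without Dox, the lowest without VTL-81. On Dox, Rpl3l turned to -1.35 with limma voom and ranged from -4.59 without VTL-44 to 2.98 without VTL-21. The causes were not tested. At 18214415 counts or more, 72 members had at least 100 counts in every library, so depth limits Rpl3l alone.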
